A study of Mus musculus with 36 samples.

Results

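A set of 10 genes of chromosome segregation were followed through single mouse oocytes, and all of these members were found by symbol among the 21968 genes of the count table. They were taken by their symbols: the spindle checkpoint genes Mad2l1, Bub1, Bub1b, Bub3 and Ttk, the Aurora kinases Aurka, Aurkb and Aurkc, the chromosomal passenger scaffold Incenp, and the Polo kinase Plk1. The series title and design compare oocytes depleted of dynamin-related protein 1 (Drp1, the product of Dnm1l, which divides mitochondria) with wild-type oocytes. Each library is 1 fully grown oocyte with an intact germinal vesicle, the nucleus of an oocyte that has not yet resumed meiosis. The 18 oocytes labelled Drp1_KO came from 4 mice (a to d) and the 18 labelled Drp1_WT from 5 mice (1 to 5), with 3 to 5 oocytes a mouse. The mouse was the replicate. The sources used here do not give strain, age, the allele deleted or any Cre driver, and they name no treatment for either label.

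The spindle checkpoint delays anaphase until every chromosome is attached to the spindle. Ttk (the kinase Mps1) and Bub1 act at unattached kinetochores, where Mad2l1 (MAD2), Bub1b (BubR1) and Bub3 are assembled with Cdc20 into an inhibitor of the anaphase-promoting complex. Aurora A works at spindle poles, whereas Aurora B and the germ-cell kinase Aurora C bind Incenp in the chromosomal passenger complex, which corrects faulty attachments. Plk1 acts in entry into M-phase, at spindle poles and at kinetochores. A fully grown oocyte makes little new RNA and stores the messages it will translate during the meiotic divisions, so the levels below are those of a stored pool.

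Sequences around the RefSeq starts of these genes are shown first. No start was measured in these oocytes, and no relation between the sequences and the levels was tested. The RefSeq promoter table (build GRCm38.p6, 250 bases before to 50 from the start on) held 9 windows for 8 members, 2 of them for Bub3. It was searched on both strands for TTTGAA and TTCGAA, the letters of the cell cycle homology region found at the start sites of many genes of mitosis, and for CCAAT, the letters bound by the factor NF-Y. TTCAAA is TTTGAA read on the other strand, and TTCGAA is its own reverse complement. TTTGAA or TTCGAA lay within 50 bases of the start in 6 of the 9 windows, 1 each of Bub1, Bub1b, Bub3, Ttk, Aurka and Plk1, and in 5.31% of all 32817 windows. The 30 bases around each are printed 5′ to 3′ on the gene's strand, with the element in capitals.
Bub1 (chr2:127831828-127831857, minus strand): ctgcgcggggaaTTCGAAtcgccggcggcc
Bub1b (chr2:118598231-118598260, plus strand): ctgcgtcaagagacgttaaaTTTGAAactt
Bub3 (chr7:131560315-131560344, plus strand): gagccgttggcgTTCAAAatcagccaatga
Ttk (chr9:83834684-83834713, plus strand): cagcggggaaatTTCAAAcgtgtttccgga
Aurka (chr2:172370521-172370550, minus strand): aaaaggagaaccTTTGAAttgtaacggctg
Plk1 (chr7:122159453-122159482, plus strand): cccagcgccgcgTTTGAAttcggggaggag
Counted from the start as position 1, with the base before it as -1, the element began at 15 in Bub1, 41 in Bub1b, -43 in Bub3, 8 in Ttk, 33 in Aurka and 31 in Plk1. Neither set of letters lay in the windows of Mad2l1 and Aurkc. The RefSeq starts can differ from the gene coordinates given below. The Mad2l1 window (chr6:66534971-66535270) ends before the gene start at 66535390, so the bases at that start were not searched. The Bub3 element lies inside the span of the gene, which begins at 131560222.

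CCAAT, on either strand, lay in 8 of the 9 windows and in 37.4% of all windows, and at least 2 copies lay in 5 of the 9, those of Bub1, Bub3 (both), Ttk and Aurka, and in 11.7% of all windows. In Aurka the copies began at positions -51 and -19, in Ttk at -65 and -28, and in Bub1 at -68, as ATTGG on the gene's strand, and -42. The 100 bases from position -110 to -11 of these 3 genes overlap no annotated exon and are printed with those letters in capitals.
Aurka (chr2:172370581-172370680, minus strand): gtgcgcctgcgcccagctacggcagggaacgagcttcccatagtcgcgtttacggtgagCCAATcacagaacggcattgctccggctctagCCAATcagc
Ttk (chr9:83834579-83834678, plus strand): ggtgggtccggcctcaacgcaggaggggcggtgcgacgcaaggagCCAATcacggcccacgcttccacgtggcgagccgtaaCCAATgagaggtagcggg
Bub1 (chr2:127831870-127831969, minus strand): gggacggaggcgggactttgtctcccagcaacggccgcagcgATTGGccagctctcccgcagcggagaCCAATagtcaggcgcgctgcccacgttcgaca
A match describes these letters and not a bound site. The share of all windows is the only background given, since the members were picked as cell division genes.

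Some libraries need to be known before the values. Totals ran from 3178509 to 7406895 counts per oocyte, and 11350 to 14659 genes were detected. Dnm1l, the gene the labels name, averaged 207 ± 15.8 CPM (SD, n = 4) over the Drp1_KO mice, where CPM is the count per library total on a common scale, here with TMM factors on counts summed per mouse, and 239 ± 69.2 CPM (SD, n = 5) over the Drp1_WT mice. This is a log2 difference of -0.21 (SE 0.19, edgeR adjusted p = 0.706). Whether counted reads fall in a deleted part is not known, so this level may not check the labels. The 5 libraries labelled Drp1_WT with tube numbers 11 to 15 held 116 to 156 CPM of Dnm1l, against 234 to 322 CPM in the other 13 with that label and 144 to 274 CPM in the libraries labelled Drp1_KO. Groups are therefore called by their labels throughout. Tube 10 of mouse b stood apart: it was below all other libraries for 42.2% of tested genes and above all for 14.4%. Its 8 immune markers summed to 549.7 CPM (Lyz2 440.0 CPM), against at most 9.26 CPM elsewhere. The 17 granulosa and cumulus markers summed to 181.3 CPM, against 83.9 to 171 CPM elsewhere. The 7 markers of proliferating somatic cells summed to 961 CPM, against 461 to 645 CPM elsewhere. The 12 markers of stroma, endothelium and epithelium summed to 14.9 CPM, below the 26.5 to 74.5 CPM elsewhere. Genes of a list differed. Inhba, Inhbb, Gja1 and Kitl were above every other library. The rest of the granulosa list was not, with Cyp19a1 (72.1 CPM) and Nr5a2 (28.8 CPM) its largest parts. Mki67, Pcna, Rrm2 and Ccna2 were above every other library, Top2a was within their range and Mcm5 below it (8.38 CPM). Of its 12 oocyte markers, Dppa3 stood at 10822 CPM, against 2414 to 5355 CPM elsewhere, while each of the other 11 was below every other library and together they summed to 1079 CPM, against 12450.0 to 29219 CPM (Zp3 13.5 CPM, Figla at 0). The 12 oocyte markers had counts in each of the other 35 libraries. Tubes 27 to 30 hold mouse d and mouse 5 alone. The index numbers in the titles run from 42 to 59 in Drp1_WT and from 60 to 77 in Drp1_KO, so what they stand for cannot be told apart from the label.

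None of the 10 members passed the test between the labels at an adjusted p of 0.05 (edgeR's quasi-likelihood test over mice, Benjamini-Hochberg over 12812 genes), where 0.0156% of all genes were called. DESeq2 and limma-voom also called 0 of 10, against 38 of 18366 genes with DESeq2 and 10 of 12812 with limma-voom. At an unadjusted p under 0.05 there were 2 of 10, Mad2l1 (with a positive log2 difference) and Plk1 (with a negative one), against 9.69% of all genes, 4.89% positive and 4.81% negative. Without tube 10 of mouse b, 0 of 10 were called (0.0156% of all genes) and Plk1 alone of the 10 had an unadjusted p under 0.05, against 8.54% of all genes, 3.79% positive and 4.76% negative. The median log2 difference, Drp1_KO over Drp1_WT, was -0.01 over the members (3 positive, 7 negative) and -0.0032 over all tested genes (6332 positive, 6480 negative). The mice of the labels overlapped for all 10, and did not overlap for 2.56% of all genes. Levels below are CPM with TMM factors on counts summed per mouse. Single-oocyte levels are CPM of the oocyte's own total. In an oocyte library, a lower CPM of a gene and more RNA of other genes cannot be told apart.

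**Figure D1:**
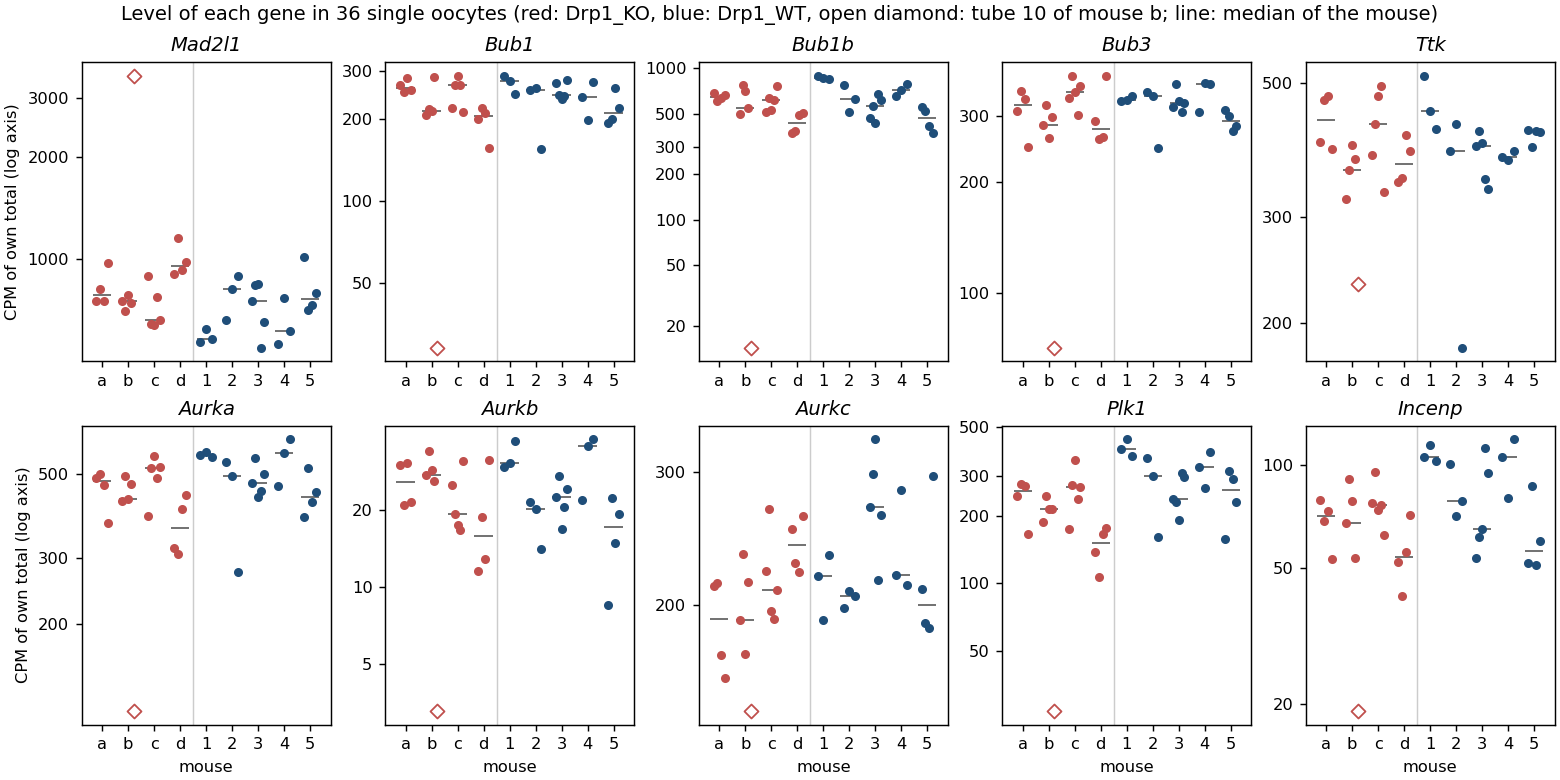
CPM of each of the 10 genes (logarithmic vertical axes) in each of the 36 oocytes, grouped by mouse along the horizontal axis and coloured by label, with tube 10 of mouse b as an open diamond. Tube 10 lies above every other oocyte for Mad2l1 (3487 CPM) and below every other for 8 genes, while within the other 35 the labels overlap for every gene.

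Among the checkpoint genes, Mad2l1 (ENSMUSG00000029910, chromosome 6, 66535390 to 66547220, plus strand, GRCm38) had the largest estimated difference between the labels. It stood at 813, 1244, 677 and 1113 CPM in mice a, b, c and d, and at 578, 753, 699.8, 615 and 847 CPM in mice 1 to 5. Mice b and d were above every Drp1_WT mouse, and mice a and c were within their range. The means were 962 ± 262 CPM (SD, n = 4) and 698 ± 108 CPM (SD, n = 5), a log2 difference of 0.46 (SE 0.17, 95% interval 0.09 to 0.84, edgeR adjusted p = 0.499, unadjusted p = 0.0197). Tube 10 carried 17063 Mad2l1 counts, 3487 CPM, whereas the other 17 Drp1_KO oocytes ran from 640.1 to 1159.8 CPM (median 776) and the 18 Drp1_WT oocytes from 549 to 1016 CPM (median 722). Without that library mouse b stood at 735 CPM, and the log2 difference was 0.25 (unadjusted p = 0.125, adjusted p = 0.632). It was 0.12 (unadjusted p = 0.515) when Drp1_WT tubes 11 to 15 and 29 were left out as well, which removes mouse 4.

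Bub1b (ENSMUSG00000040084, chromosome 2, 118598211 to 118641591, plus strand), the BubR1 kinase-like protein of the checkpoint complex, was a kinetochore protein as well. It stood at 658, 548, 597 and 491 CPM in mice a to d and at 840.5, 606, 535, 681 and 484 CPM in mice 1 to 5. Mouse 1 was the highest and mouse 5 the lowest of all 9, so the Drp1_WT mice span the Drp1_KO mice. The means were 573 ± 70.9 CPM (SD, n = 4) and 629 ± 139 CPM (SD, n = 5), with a log2 difference of -0.13 (SE 0.16, 95% interval -0.47 to 0.20, adjusted p = 0.754).

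Bub1 and Bub3 had estimated differences close to 0. Bub1 (ENSMUSG00000027379, chromosome 2, 127801122 to 127831865, minus strand), the kinase that recruits other checkpoint proteins to kinetochores, stood at 269.5, 206, 247 and 220.2 CPM in mice a to d and at 263, 221, 247, 224 and 224 CPM in mice 1 to 5. Its means were 236 ± 28.1 (SD, n = 4) and 236 ± 18.3 CPM (SD, n = 5), and the 95% interval of the log2 difference ran from -0.24 to 0.23. Bub3 (ENSMUSG00000066979, chromosome 7, 131560222 to 131571895, plus strand), the adaptor that carries Bub1 and BubR1 to kinetochores, stood at 325, 268, 340.03 and 335 CPM in mice a to d and at 325, 305, 318, 330.4 and 302 CPM in mice 1 to 5. Mouse b, which holds tube 10, was the lowest of the 9 for both genes. The means of Bub3 were 317 ± 33.3 (SD, n = 4) and 316 ± 12.5 CPM (SD, n = 5), with an interval of -0.21 to 0.22. Both intervals end below the 0.46 estimated for Mad2l1 over all oocytes, an estimate that was 0.25 without tube 10. The interval of Mad2l1, 0.09 to 0.84, overlaps both, and no difference between genes was tested. Bub3 lies within the span of Fgfr2 on the other strand and shares 0 exon bases with it.

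Ttk (ENSMUSG00000038379, chromosome 9, 83834689 to 83872389, plus strand), the kinase that starts checkpoint signalling, stood at 446, 354, 412 and 416 CPM in mice a to d and at 446, 334, 363, 357 and 423 CPM in mice 1 to 5. Mice a and 1 were the highest at the same level, and mice b, 2 and 4 the lowest, so both labels were at both ends. The means were 407 ± 38.7 CPM (SD, n = 4) and 385 ± 47.3 CPM (SD, n = 5), and the log2 difference was 0.08 (SE 0.12, 95% interval -0.17 to 0.33, adjusted p = 0.805).

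Aurkb was stored far below Aurka and Aurkc, and none of the 3 Aurora kinases passed the test between the labels. Aurka (ENSMUSG00000027496, chromosome 2, 172356190 to 172370535, minus strand) stood at 477, 418, 493 and 411 CPM in mice a to d and at 549, 433, 467, 525 and 456 CPM in mice 1 to 5. Its means were 449.8 ± 41.4 CPM (SD, n = 4) and 486 ± 48.9 CPM (SD, n = 5), a log2 difference of -0.11 (SE 0.11, 95% interval -0.35 to 0.12, adjusted p = 0.715). Mice b and d were the lowest of the 9, and mice 1 and 4 the highest. Aurkc (ENSMUSG00000070837, chromosome 7, 6995300 to 7003091, plus strand) stood at 196, 203, 213 and 269 CPM in mice a to d and at 207, 196, 265, 226 and 227 CPM in mice 1 to 5. Its highest mice were d and 3, 1 of each label, and its log2 difference was -0.03 (SE 0.12, 95% interval -0.29 to 0.24, adjusted p = 0.952).

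Aurkb (ENSMUSG00000020897, chromosome 11, 69045647 to 69051664, plus strand), the passenger kinase of dividing somatic cells, was the scarcest member. It stood at 26.7, 25.7, 20.7 and 20.6 CPM in mice a to d and at 31.3, 18.2, 21.5, 30.2 and 16.4 CPM in mice 1 to 5. The Drp1_WT mice held both the highest and the lowest value. The means were 23.4 ± 3.23 CPM (SD, n = 4) and 23.5 ± 6.88 CPM (SD, n = 5), and the 95% interval of the log2 difference, -0.43 to 0.42. Each mouse held 6.602 to 13.86 CPM of Aurkc for each CPM of Aurkb. Per kilobase of merged exons, Aurkb was 2.42% ± 0.445 (SD, n = 4) of the summed Aurora level in Drp1_KO and 2.28% ± 0.554 (SD, n = 5) in Drp1_WT, Aurkc 43.7% ± 5.18 and 42.4% ± 3.88, and Aurka 53.9% ± 4.96 and 55.3% ± 3.44, in that order of labels.

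Incenp (ENSMUSG00000024660, chromosome 19, 9872296 to 9899551, minus strand), the scaffold that binds Aurora B or C, stood at 71.9, 66.4, 75.4 and 61.4 CPM in mice a to d and at 104.8, 79.7, 75.1, 95.6 and 63.8 CPM in mice 1 to 5. All 4 Drp1_KO mice were below the median Drp1_WT mouse, and the labels overlapped through mice 3 and 5. The means were 68.7 ± 6.15 CPM (SD, n = 4) and 83.8 ± 16.4 CPM (SD, n = 5), a log2 difference of -0.28 (SE 0.14, 95% interval -0.59 to 0.03, edgeR adjusted p = 0.527, unadjusted p = 0.0689).

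Plk1 (ENSMUSG00000030867, chromosome 7, 122159439 to 122169873, plus strand), the Polo kinase, had the most negative difference. It stood at 255, 192, 266 and 164 CPM in mice a to d and at 393, 272, 248, 309 and 252 CPM in mice 1 to 5. Mice b and d were below every Drp1_WT mouse, and mice a and c were within the Drp1_WT range. The means were 219 ± 48.8 CPM (SD, n = 4) and 295 ± 59.8 CPM (SD, n = 5), 0.743 times as much, with a log2 difference of -0.43 (SE 0.17, 95% interval -0.80 to -0.06, edgeR adjusted p = 0.499, unadjusted p = 0.0259). Tube 10 held 26.97 CPM, while the other 17 Drp1_KO oocytes ran from 107 to 355 CPM (median 215) and the Drp1_WT oocytes from 157 to 439 CPM (median 299). The log2 difference was -0.40 without tube 10 (unadjusted p = 0.0316, adjusted p = 0.563) and -0.34 (unadjusted p = 0.0938) also without Drp1_WT tubes 11 to 15 and 29. A predicted gene on the other strand, Gm44985, shares 156 exon bases with Plk1 and is not among the counted genes, so its reads would not be separable here.

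**Figure D2:**
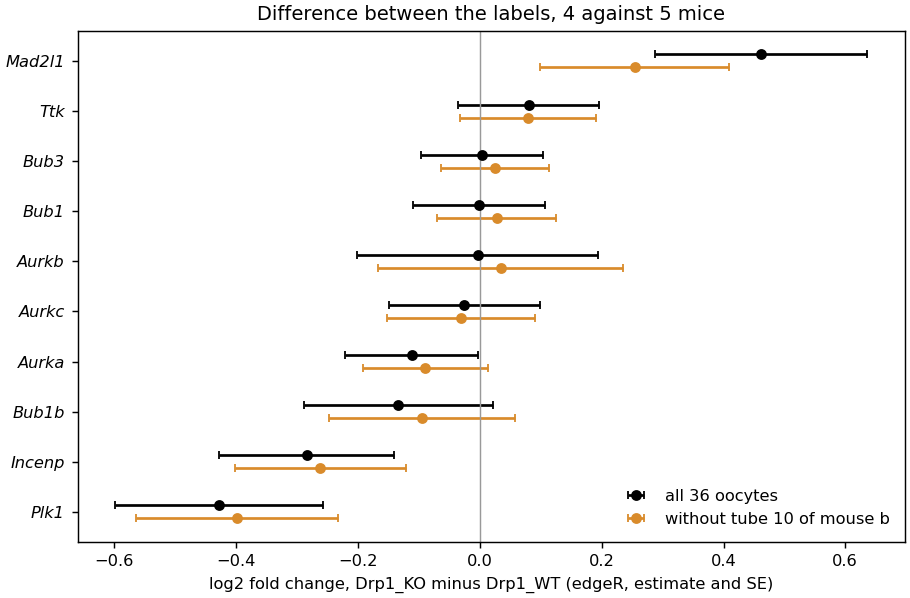
Log2 difference, Drp1_KO over Drp1_WT (horizontal axis), with its SE from edgeR for each of the 10 genes, over all oocytes and without tube 10 of mouse b. Mad2l1 lies at 0.46 with all oocytes and 0.25 without tube 10, Plk1 at -0.43 and -0.40, and the other 8 genes between -0.28 and 0.08 with all oocytes.

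Mad2l1, Plk1 and Incenp were compared within each set of tube numbers, since mouse d belongs to tubes 27 to 30. Within tubes 1 to 15, 3 against 4 mice, the log2 differences were 0.46 for Mad2l1 (unadjusted p = 0.0244), -0.36 for Plk1 (unadjusted p = 0.0450) and -0.31 for Incenp (unadjusted p = 0.0354), with adjusted p of 0.455, 0.486 and 0.479 in edgeR. These tubes include tube 10, without which the log2 differences were 0.16 for Mad2l1 (unadjusted p = 0.168, adjusted p = 0.623), -0.32 for Plk1 (unadjusted p = 0.0467, adjusted p = 0.486) and -0.28 for Incenp (unadjusted p = 0.0396, adjusted p = 0.474). Within tubes 27 to 30, mouse d against mouse 5 gave 1113 against 847 CPM for Mad2l1, 164 against 252 CPM for Plk1 and 61.4 against 63.8 CPM for Incenp, with 1 mouse a label and no test. With the tube set as a term, edgeR gave adjusted p of 0.279, 0.277 and 0.347 for Mad2l1, Plk1 and Incenp.

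Levels were compared between genes per kilobase of merged exons, as means over the 9 mice. Aurka was the highest at 186 ± 18.6 CPM per kilobase (SD, n = 9), rank 317 of 12800 genes, followed by Aurkc at 146 ± 18.2, Bub1b at 141 ± 26.1, Plk1 at 119 ± 29.8, Mad2l1 at 97.2 ± 26.9, Ttk at 80.2 ± 8.67, Bub1 at 54.2 ± 4.95 and Bub3 at 45.2 ± 3.17 CPM per kilobase. Incenp at 17.8 ± 3.36 and Aurkb at 7.97 ± 1.78 CPM per kilobase were the lowest, at ranks 2722 and 4387. Aurkc and Bub1b, neighbours in this order, did not separate, with Aurkc higher in 5 of 9 mice. Plk1 was above Mad2l1 in 7 of 9 mice and Mad2l1 above Ttk in 7 of 9, while Ttk, Bub1, Bub3, Incenp and Aurkb followed each other in that order in 9 of 9.

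The middle of this order depends on the gene length used. With the mean length of protein-coding transcripts in place of merged exons, Aurka (249 CPM per kilobase) and Aurkc (215) still led and Incenp (50.3) and Aurkb (12.4) were still last. Bub3, whose merged exons are 7006 bases long, came to 179 CPM per kilobase, and Ttk to 191, both above Bub1b at 165.

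**Figure D3:**
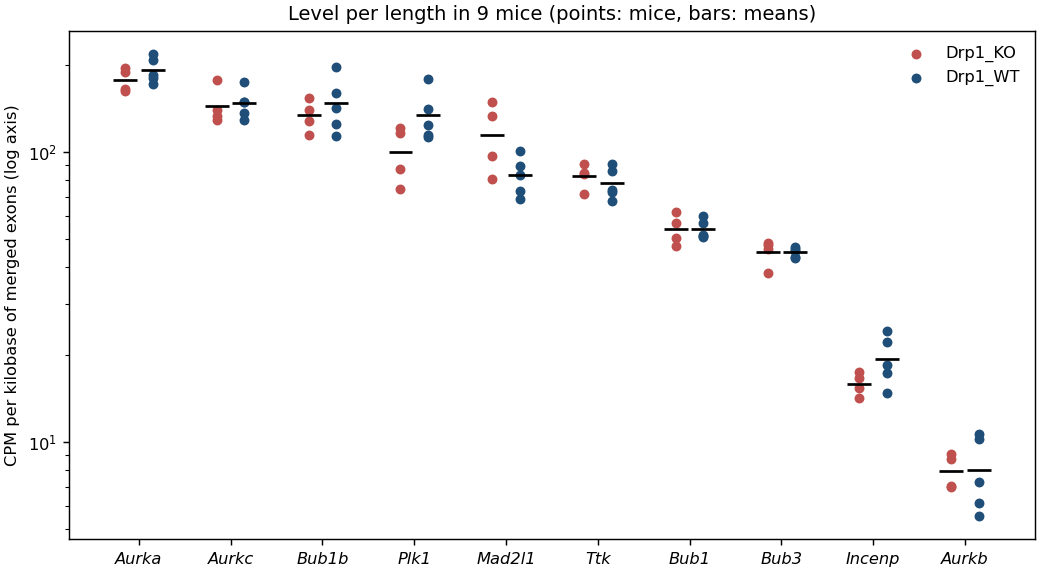
CPM per kilobase of merged exons (logarithmic axis) of the 10 genes in the 9 mice, coloured by label, in the order of their means. The points run from 162 to 217 for Aurka at the top and from 5.56 to 10.6 for Aurkb at the bottom.

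Libraries of the same mouse also differed from each other, with the largest SD for Aurkb, Plk1 and Incenp. Over the 35 oocytes other than tube 10, the SD of log2(CPM + 1) within mice was 0.38 for Aurkb, 0.35 for Plk1 and 0.31 for Incenp, against 0.17 for Bub3, the steadiest member, and 0.20 to 0.23 for the other 6. If each read were an independent molecule, counting error would give 0.12 for Aurkb, which averaged 139 counts an oocyte. It would give 0.07 for Incenp and 0.02 to 0.04 for the others. No molecular identifiers are named, so the true error of a library is not known. Differences between oocytes cannot be told apart from it here. Plk1 varied more within mice than 91.7% of 785 genes of like level (within 1.5-fold, median SD 0.21), and Bub3 more than 27.5% of 637. Aurkb and Incenp stood less apart, above 68.8% of 1858 genes (median SD 0.33) and 72.1% of 1719 (median SD 0.25). Ttk, Aurka and Bub1b were above 70.4%, 71.4% and 73.2% of genes of their level. The share of variance lying between mice was 57.7% for Bub1b and 48.5% for Plk1, and 11.5% for Bub3.

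Across single oocytes, Mad2l1 went against most other members. Pearson's r of log2(CPM + 1) over 35 oocytes was -0.89 between Mad2l1 and Plk1, -0.78 with Incenp, -0.70 with Aurka and -0.61 with Bub1b, and 8 of its 9 values were negative. The value for Mad2l1 and Plk1 was -0.89 in 17 Drp1_KO oocytes, -0.87 in 18 Drp1_WT oocytes, -0.83 within mice, -0.83 in 27 oocytes of tubes 1 to 15 and -0.94 in 8 oocytes of tubes 27 to 30. In each mouse the CPM of Mad2l1 per CPM of Plk1 ran from 1.47 in mouse 1 to 6.77 in mouse d, with mouse b at 6.48, or 3.47 without tube 10. Tube 28 of mouse d was at the far end, with the most Mad2l1 (1159.8 CPM) and the least Plk1 (107 CPM) and Incenp (41.3 CPM) of the 35.

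Over all 45 pairs of members, 31 had a positive r (68.9%), with a median of 0.26, against 54.5% of all pairs of 7343 genes of at least 10 CPM, with a median of 0.05. The count was 29 in Drp1_KO, 33 in Drp1_WT, 30 in tubes 1 to 15 and 25 in tubes 27 to 30, where 8 oocytes gave values from -0.94 to 0.87. Over the 35 oocytes every negative value was of a pair with Mad2l1, with 1 of 9 positive, or Aurkc, with 3 of 9. It follows that the 28 pairs without these genes were all positive over the 35 oocytes, which adds nothing to that sentence. Within mice 24 of these 28 were positive, with Bub1 and Bub1b the lowest at -0.23. Over the 9 mice without tube 10, 27 of the 28 were positive. The highest were Aurka with Plk1 at 0.85 (0.80 within mice), Plk1 with Incenp at 0.75, Bub1b with Incenp at 0.74 and Bub3 with Aurka at 0.72. Within mice 29 of the 45 were positive. Aurkc followed no other member closely: its 9 values ran from -0.31 to 0.39, and 3 were positive.

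**Figure D4:**
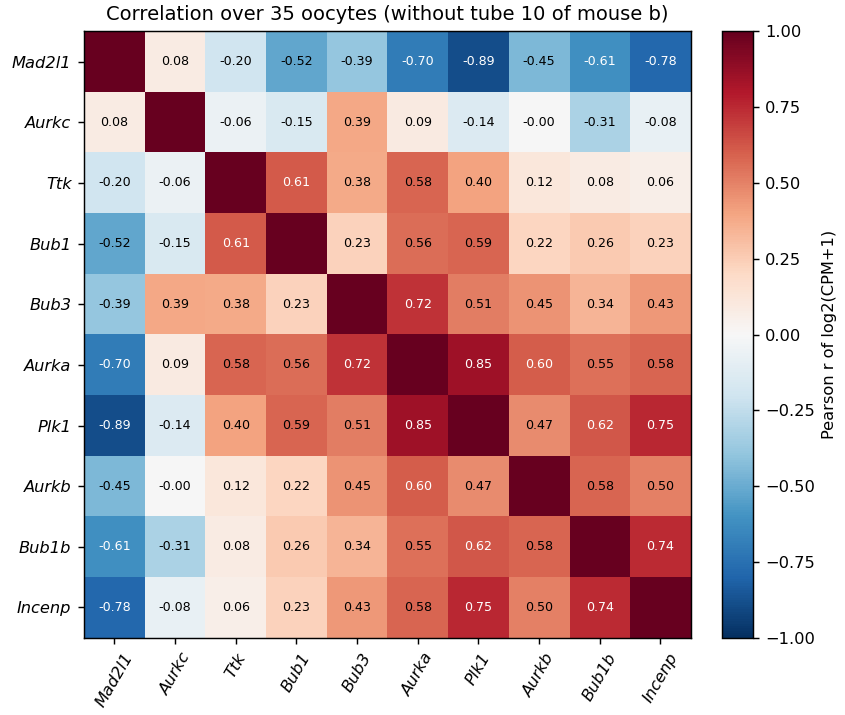
Pearson's r of log2(CPM + 1) between the 10 genes over the 35 oocytes other than tube 10 of mouse b, from -1 to 1 by colour. The row of Mad2l1 is negative except with Aurkc, reaching -0.89 with Plk1, and the pair of Aurka and Plk1 is the most positive at 0.85.

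These values are descriptions of 35 oocytes that share mice, library size scaling and detection. Of 7342 genes of at least 10 CPM, 86 had an r with Mad2l1 below that of Plk1, and 35.6% had a positive one. The r of each member with the number of genes detected was -0.77 for Mad2l1, 0.67 for Plk1, 0.52 for Incenp, 0.43 for Aurka and 0.40 for Bub1, and -0.05 to 0.28 for the others; the part of detection in the relations was not tested. With total counts it ran from -0.26 for Mad2l1 to 0.36 for Aurka. Tube 6 of mouse 2 was the lowest of the 35 for Bub1 (155 CPM), Bub3 (247 CPM), Ttk (182 CPM) and Aurka (275 CPM), while its Bub1b, 630.3 CPM, ranked 20 from the lowest. Without it the r of Bub1 and Ttk was 0.46 in place of 0.61, that of Ttk and Aurka 0.36 in place of 0.58, and that of Ttk and Aurkb -0.10 in place of 0.12, whereas Mad2l1 and Plk1 stayed at -0.89.

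**Figure D5:**
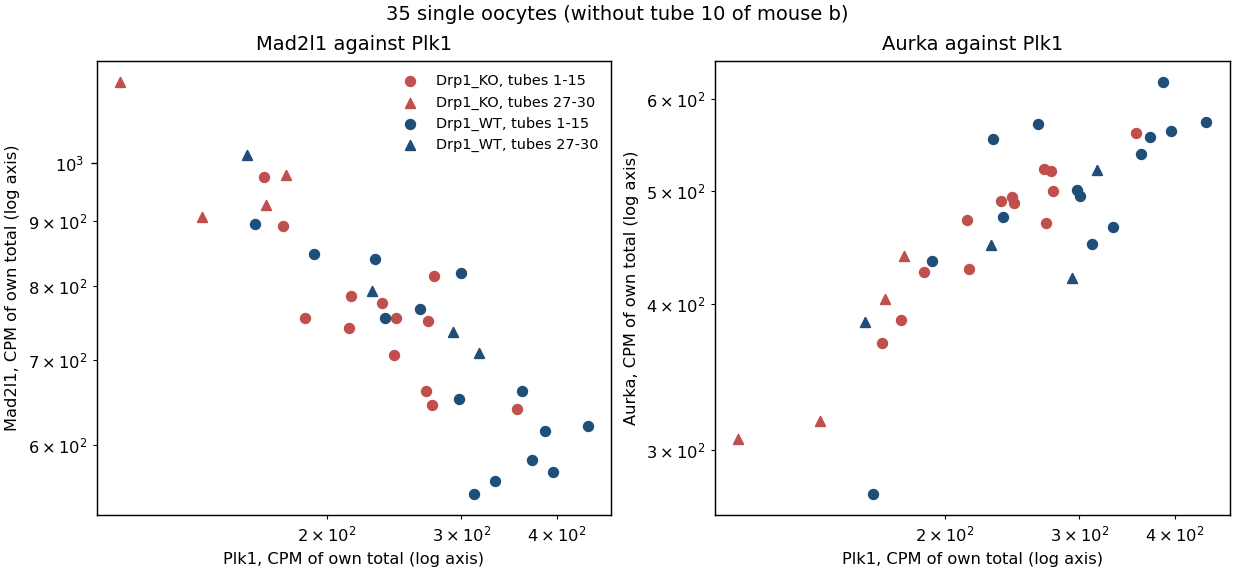
CPM of Mad2l1 and of Aurka (logarithmic vertical axes) against CPM of Plk1 (logarithmic horizontal axes) in 35 oocytes, coloured by label and with symbols by tube set. The relation with Plk1 is negative for Mad2l1 (r of log2(CPM + 1) of -0.89) and positive for Aurka (0.85), with both labels spread along each band.

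The genes whose levels followed a member most closely over the 35 oocytes were taken by the highest r among 7342 genes. For Mad2l1 they were Ssb (0.95), Brix1 (0.95) and Bet1 (0.95), and for Plk1 Dnm2 (0.95), Tle6 (0.95) and Pkm (0.95). Tle6 is a maternal gene of the subcortical complex of the oocyte, Ssb the RNA-binding La protein, and Pkm a pyruvate kinase. For Aurka they included Pold2 (0.92) and Stx5a (0.90), and for Bub1b Usp28 (0.91), Tbc1d14 (0.88) and Sfmbt1 (0.88). For Aurkc the nearest genes reached only 0.67 (Rcl1), 0.65 (Pigyl) and 0.65 (Tesc), and 99% of genes lay below 0.47, against 0.88 for Mad2l1 and 0.90 for Plk1.

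In tube 10 the members did not move as a block. Mad2l1 was 2.17 above the median of the other 17 Drp1_KO oocytes on the log2 scale, while Bub1b, at 70 counts and 14.3 CPM, was at -5.42. Plk1, Aurkb and Bub1 were at -2.99, -2.93 and -2.93, Bub3, Aurka and Incenp between -2.12 and -1.91, and Aurkc, at 144 CPM, at -0.56. Ttk, at 232 CPM, was the 1 member inside the range of the other 35. The other oocytes of mouse b held 499.98 to 769 CPM of Bub1b and 706 to 786 CPM of Mad2l1. The 8 members below all other libraries stand beside 42.2% of all tested genes, and the summed markers of the library are those given above; their part in these values was not tested.

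Partners of the members were taken from 4 lists, and 0 of their 55 tested genes were called between the labels by edgeR, against 0.0156% of all genes, with 1 at an unadjusted p under 0.05 in each direction, against 4.89% of all genes positive and 4.81% negative. The median log2 difference of the 55 was 0.02. Among 10 checkpoint partners (median 0.01, 6 positive), Mad1l1, which anchors MAD2 at kinetochores, stood at 66.04 ± 13.02 CPM (SD, n = 4) in Drp1_KO and 85.9 ± 17.8 CPM (SD, n = 5) in Drp1_WT (log2 -0.38, unadjusted p = 0.0417, edgeR adjusted p = 0.508; unadjusted p = 0.0553 without tube 10). Tpr, a nuclear pore protein that binds the MAD1 and MAD2 pair, stood at 164 ± 1.55 CPM (SD, n = 4) and 145 ± 11.2 CPM (SD, n = 5), and its mice did not overlap (162 to 165 CPM against 129 to 158 CPM, as for 2.56% of all genes; edgeR unadjusted p = 0.0790, adjusted p = 0.535). Spdl1 and Cdc20 were the most abundant of this list per kilobase, at 86.7 and 72.1 CPM per kilobase.

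Of 17 kinetochore genes, 13 had a positive log2 difference, against 6332 of all 12812 genes. The list median was 0.16, against -0.0032 over all genes. Both include tube 10. Without it, the log2 difference went from 0.25 to 0.24 for Knl1, from 0.26 to 0.19 for Nuf2 and from 0.17 to 0.08 for Dsn1. Knl1, the scaffold to which BUB1 and BUB3 bind, stood at 86.7 ± 4.83 CPM (SD, n = 4) and 72.7 ± 5.46 CPM (SD, n = 5), overlapping between 79.9 and 80.5 CPM (log2 0.25, unadjusted p = 0.0242, edgeR adjusted p = 0.499). Nuf2, of the microtubule-binding Ndc80 complex, stood at 698 ± 111 CPM (SD, n = 4) and 584 ± 59.2 CPM (SD, n = 5; unadjusted p = 0.0594, edgeR adjusted p = 0.523, and an unadjusted p of 0.140 without tube 10). Dsn1 and Nuf2 led the list per kilobase, at 149 and 100.1 CPM per kilobase.

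Of 12 tested chromosomal passenger partners, 4 had a positive log2 difference (median -0.06). Birc5 (survivin), the passenger subunit that joins Incenp and borealin, stood at 424 CPM per kilobase of merged exons. Beside it were 146 for Aurkc, 78.3 for Cdca8 (borealin), 17.8 for Incenp and 7.97 for Aurkb. By coding transcript length Aurkc was at 215, Incenp at 50.3 and Aurkb at 12.4. Birc5 and Cdca8 were not compared by that length. Birc5 stood at 1561 ± 201 CPM (SD, n = 4) and 1345 ± 206 CPM (SD, n = 5; edgeR adjusted p = 0.570), and Kif2c, a microtubule-depolymerising kinesin and Aurora substrate, at 203 ± 35.4 CPM (SD, n = 4) and 249.7 ± 37.8 CPM (SD, n = 5; edgeR adjusted p = 0.523). Of 16 tested partners of Aurora A and Polo, 7 had a positive log2 difference (median -0.02). Tacc3, the spindle protein that Aurora A phosphorylates, was the highest per kilobase at 713 CPM, above Fbxo5, the inhibitor of the anaphase-promoting complex, at 119.6 CPM per kilobase. Tacc3 stood at 2335 ± 231 CPM (SD, n = 4) and 2691 ± 204 CPM (SD, n = 5; log2 -0.20, edgeR adjusted p = 0.536), and Cep192, the centrosome scaffold, at 48.4 ± 4.22 CPM (SD, n = 4) and 41.8 ± 4.19 CPM (SD, n = 5; edgeR adjusted p = 0.542). Kif2b and Ajuba did not pass the filter on low counts.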

How the data were processed

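Single-oocyte libraries were made with the SMARTer Ultra Low Input and Nextera XT kits, per the labels' protocols. The tools listed in the submitters' processing notes, without their roles, are Picard, featureCounts, Subread 1.5.2 and STAR, with the build GRCm38. The authors deposited raw counts for 21968 Ensembl genes by 36 oocytes. The sources used here do not say how strand, multi-mapped reads and PCR copies were treated, and no molecular identifiers are named, so reads are not independent molecules. Of the IDs, 21876 matched GENCODE M21 (GRCm38), and 3535 genes were at 0 in every oocyte. Libraries were checked for repeats: over 306 same-label pairs, the lowest chi-square divided by its degrees of freedom was 5.47.

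Counts were summed per mouse and tested with edgeR 4.0.16 (R 4.3.3; TMM, its filter on low counts, robust quasi-likelihood fit; 12812 genes; biological coefficient of variation 0.214), with Benjamini-Hochberg adjustment. Alternatives were DESeq2 1.42.0, limma-voom (limma 3.58.1) on single oocytes with the mouse as random effect, other scalings, no filter, the tube set as a term or left out, and each mouse left out. Leaving out tube 10 (also within tubes 1 to 15), Drp1_WT tubes 11 to 15 and 29, or Drp1_WT tube 6 was chosen after seeing the data. Scripts were tested on simulated data of 4 against 5 mice. There edgeR recovered 27 of 67 genes changed 1.5-fold and 66 of 67 changed 2-fold, so smaller differences would often be missed. Members and lists were chosen with earlier results of these data known. In each list the 2 genes of smallest p and the 2 of highest level per kilobase were named, and 3 nearest genes for each of 5 members, of which 1 for Aurka is not reported here. The notes on tubes 6 and 28, on single marker genes in tube 10 and on Gm44985 were chosen after their values were seen. Promoter windows are from RefSeq (GRCm38.p6).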

Additional observations from a re-analysis of the deposited data

How the results depend on the processing

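The count of members called, and that of partner genes called, was 0 under all 20 alternatives, while the genes called in all were 2 in the reported test, 38 with DESeq2, 10 with limma-voom and 1 to 4 in the others. The log2 differences of Mad2l1, Plk1, Incenp, Aurka and Bub1b kept their sign in every alternative. That of Bub1b ran from -0.30 with limma-voom to -0.0082 without mouse 1, so its sign was barely kept. That of Aurka ran from -0.19 to -0.06. Adjusted p ran from 0.221 to 0.959 for Mad2l1, 0.269 to 0.884 for Plk1 and 0.266 to 0.943 for Incenp. Those near 0 changed sign, and the cause was not tested. Bub1 gave 0.0025 with DESeq2, 0.0010 with RLE, 0.0076 without filter, 0.0030 with the set term, 0.0145 without tubes 27 to 30, 0.0273 without tube 10, 0.0528 without both and 0.0020 without tube 10 and Drp1_WT tubes 11 to 15 and 29. Aurkb gave 0.0016 with DESeq2, 0.00061 with RLE, 0.0061 without filter and 0.0320 with the set term. It gave 0.0343 without tube 10, 0.0677 without Drp1_WT tubes 11 to 15 and 0.105 without tube 10 and Drp1_WT tubes 11 to 15 and 29. Bub3 gave -0.0827 with library totals, which move the median of all genes to -0.09, and -0.0684 with limma-voom. It gave -0.0366 without tubes 27 to 30 and -0.0078 without these and tube 10. It gave -0.0260 without Drp1_WT tubes 11 to 15 and -0.0094 without tube 10 and Drp1_WT tubes 11 to 15 and 29. Ttk gave -0.0023 with library totals and -0.0035 without Drp1_WT tubes 11 to 15. It gave -0.00032 without tube 10 and Drp1_WT tubes 11 to 15 and 29. Leaving out each mouse gave ranges of -0.0731 to 0.0572 for Bub1, -0.0234 to 0.0766 for Bub3, -0.109 to 0.120 for Aurkb, -0.137 to 0.0442 for Aurkc, 0.31 (mouse b) to 0.61 (mouse c) for Mad2l1 and -0.53 (mouse c) to -0.30 (mouse 1) for Plk1. The unadjusted p of Mad2l1 was above 0.05 without mouse b (0.0929) or d (0.0546), and that of Plk1 without mouse 1 (0.0722), b (0.0764) or d (0.0800). No paired analysis was possible because mice of the labels carry letters and numbers that name no pairs. The 4 against 5 mice and the absence of molecular identifiers limit precision.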

Other observations

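Over the 20 groups of mice, 10 genes by 2 labels, 0 had a highest or lowest mouse whose gap to its neighbour passed the 95% critical value of Dixon's ratio, a test that chance passes in about 1 in 20 groups. In mouse 1 Aurkb, Bub1b, Aurka, Plk1 and Incenp were the highest of the 9 mice and Mad2l1 (578 CPM) the lowest. The CPM of Mad2l1 per CPM of Bub1b ran from 0.688 in mouse 1 to 2.27 in mice b and d, and was 1.19 in mouse b without tube 10. The CPM of Aurka per CPM of Plk1 ran from 1.40 in mouse 1 to 2.50 in mouse d. Bub1b per Bub1 ran from 2.16 in mice 3 and 5 to 3.20 in mouse 1, with mouse d at 2.23.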
